A study of Saccharomyces cerevisiae with 12 samples.

Results

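RNA polymerase I makes the large ribosomal RNA precursor, and RNA polymerase III makes 5S ribosomal RNA, transfer RNAs and other small RNAs. Both enzymes are brought to their genes by dedicated factors, and both need the TATA-binding protein, which is best known for its work with RNA polymerase II and which is also a subunit of the polymerase III initiation factor TFIIIB. In growing yeast most transcription is of ribosomal and transfer RNA, and the synthesis of both is turned down when nutrients run short or cells are stressed, for polymerase III through the repressor Maf1.

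The machinery was taken as 38 genes: the subunits of polymerases I and III, their initiation factors and MAF1. They were chosen by name, with earlier results of these data known. All 38 were measured, out of 5449 Saccharomyces cerevisiae genes on the array. They comprise 7 subunits of polymerase I alone, 2 shared by polymerases I and III, 2 shared by all 3 nuclear polymerases, 10 of polymerase III alone, 8 initiation factor genes of polymerase I, 2 of TFIIIB, 6 of TFIIIC, and MAF1. What was measured is the messenger RNA of these proteins and not the RNA that the polymerases make. A list of 9 noncoding products of the polymerases had 0 genes with a named probe set, so their output was not analysed here by gene.

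The study asked what a mutant form of the TATA-binding protein does to yeast grown with ethanol. Cells of BY4741, a haploid laboratory strain, carried the plasmid p416-Tefmut2-SPT15, with the gene of the TATA-binding protein, or p416-Tefmut2-spt15-300, with its mutant form. Each strain was grown in YSC -URA medium, either free of ethanol (0%) with glucose at 20 g/L or with 5% ethanol and glucose at 60 g/L, called the ethanol medium here, in 3 cultures per group at 30 °C in closed, shaken tubes up to about the same optical density. Each culture's total RNA was measured on an Affymetrix Yeast Genome 2.0 array. Ethanol and glucose changed together, so their effects cannot be told apart. The plasmid came on top of the chromosomal SPT15, for which no label records a deletion, and the labels do not say whether a strain was a single clone.

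The title of 1 array, replicate 2 of the spt15-300 strain in the ethanol medium, calls it an outlier. It was left out, so that group has 2 arrays and the other 3 groups have 3 each. The 11 arrays used had median log2 intensities of 10.46 to 10.53 and correlated at 0.993 or more within a group. On the array left out, 31 of the 38 genes read below the whole range of the other arrays, 2 read above it and 5 within it. Values are log2 intensities, so a difference of 1 is a doubling, and levels of different genes are not compared because each has its own probes. Every one of the 38 genes read above the background on all 11 arrays: the lowest value was 8.64, against 7.36 for the highest 95th percentile of the Schizosaccharomyces pombe probe sets on any of these arrays. The median SD of a member within a group was 0.069. The 3' minus 5' signal of control genes, which rises as RNA degrades, was 0.240 to 0.266 in the spt15-300 strain without ethanol, against 0.310 to 0.359 in the SPT15 strain there, 0.361 to 0.435 in the SPT15 strain with ethanol and 0.379 to 0.400 in the spt15-300 strain with ethanol. It therefore differed between the groups of most comparisons below, and its part in the results was not tested.

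SPT15 itself read 13.47 ± 0.026 (SD, n = 3) in the SPT15 strain and 13.46 ± 0.020 (SD, n = 3) in the spt15-300 strain without ethanol. With ethanol it read 13.34 ± 0.021 (SD, n = 3) and 13.30 ± 0.020 (SD, n = 2). The difference between strains was called in neither medium (-0.02 and -0.05, limma adjusted p = 0.801 and 0.376). The arrays of the strains overlapped without ethanol, and with ethanol those of the spt15-300 strain were all lower. Its probe set reads the chromosomal and the plasmid copy alike, so it checks neither the plasmid nor the mutation.

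The subunits of both polymerases were lower in the ethanol medium in both strains. Of the 21 subunit genes, 19 fell in the SPT15 strain and 19 in the spt15-300 strain, with 0 higher in either. The median change over the 21 was -0.56 in the SPT15 strain and -0.49 in the spt15-300 strain, against 0.01 and 0.02 over all genes. Initiation factor genes were mixed. Of the 17 factor genes with MAF1 among them, 5 rose and 6 fell in each strain, with medians of 0.04 and -0.13. These factor counts are near the shares of all genes. Of all genes tested, 31.7% rose and 29% fell in the SPT15 strain, and 33.8% rose and 28.7% fell in the spt15-300 strain. A gene is said here to rise or fall, or to be called, where limma gave an adjusted p (Benjamini-Hochberg, all 5449 genes) under 0.05.

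Over all 38 genes, 25 fell and 5 rose in the SPT15 strain, and 25 fell and 5 rose in the spt15-300 strain. Without replicate 3 of the spt15-300 strain in ethanol, 19 fell and 5 rose there. With the array titled an outlier added, which widens the spread shared by all groups, 8 fell and 0 rose in the SPT15 strain and 14 fell and 0 rose in the spt15-300 strain. The background was large: in the SPT15 strain 29% of all genes tested fell and 31.7% rose, and in the spt15-300 strain 28.7% fell and 33.8% rose. The number that rose lies under that background and the number that fell well over it. In both strains alike, 22 of the 38 fell, against 22.5% of all genes, and 4 rose (RRN5, RRN10, TFC6 and TFC8), against 25.9% of all genes. The 2 responses come from separate arrays. Across the 38 genes they correlated at r = 0.873 (Spearman's rho = 0.849), with the same sign in 33 of 38, which is a description over genes that are not independent replicates. Across the 21 polymerase subunits alone r was 0.669 (rho = 0.578), with the same sign in 20. Across all 5449 genes r was 0.905, with the same sign in 4593.

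**Figure D1:**
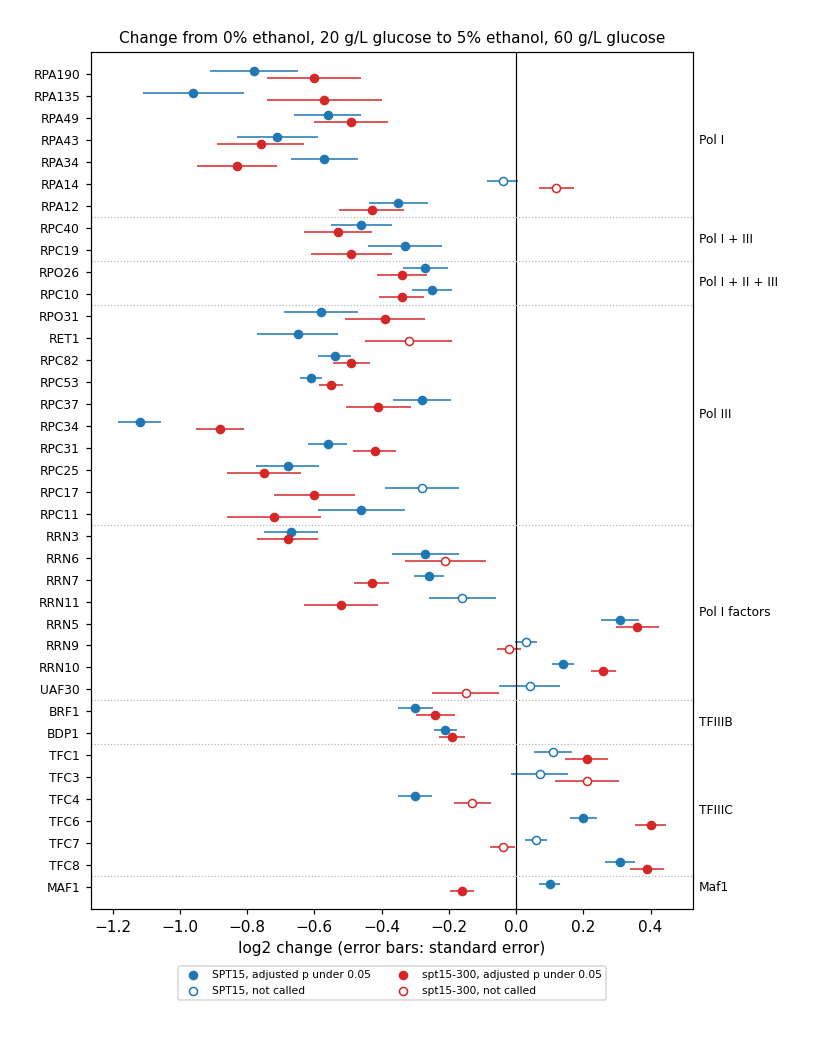
Log2 change of each of the 38 genes from the medium without ethanol to the ethanol medium, in the SPT15 strain (blue) and the spt15-300 strain (red), ordered by role. Points are fitted changes and bars are standard errors; filled points have a limma adjusted p under 0.05. Most polymerase subunits lie left of 0 in both strains, and RPC34 is the lowest, while RRN5, RRN10, TFC6 and TFC8 lie right of 0 in both.

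Of the 7 genes of polymerase I alone, 6 fell in each strain, with a median change of -0.57 in both. RPA190 and RPA135 encode the 2 large subunits that form the active centre. RPA135 (YPR010C) read 12.31, 12.29 and 12.33 in the SPT15 strain without ethanol and 11.70, 11.05 and 11.32 with ethanol. Readings in the spt15-300 strain were 12.41, 12.31 and 12.14 without ethanol and 11.90 and 11.53 with ethanol. All ethanol arrays of a strain lay below all its arrays without ethanol, and the ethanol arrays were more spread, with the first replicate the highest in both strains. The change was -0.96 (SE 0.15, adjusted p = 0.000422), or 1.94-fold lower, in the SPT15 strain and -0.57 (SE 0.17, adjusted p = 0.014), or 1.49-fold lower, in the spt15-300 strain. RPA190 fell by 0.78 (adjusted p = 0.000527) and by 0.60 (adjusted p = 0.00445) on the log2 scale. In the spt15-300 strain both calls rest on replicate 3 with ethanol: without that array RPA135 was at -0.38 (adjusted p = 0.142) and RPA190 at -0.45 (adjusted p = 0.0554).

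RPA34 and RPA49 encode a heterodimer that binds to the core of polymerase I. RPA34 (YJL148W) read 12.05, 12.02 and 12.17 in the SPT15 strain without ethanol and 11.68, 11.59 and 11.26 with it. The spt15-300 strain read 12.18, 12.08 and 12.03 without ethanol and 11.39 and 11.15 with it. The groups of the 2 media did not overlap in either strain, whereas the strains overlapped in each medium. RPA34 changed by -0.57 (SE 0.10, adjusted p = 0.00107) in the SPT15 strain and by -0.83 (SE 0.12, adjusted p = 0.00026), or 1.77-fold lower, in the spt15-300 strain. Its partner RPA49 fell by 0.56 and 0.49. Without replicate 3 of the spt15-300 strain in ethanol, the RPA49 change there was -0.30 (adjusted p = 0.0521).

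RPA43 and RPA14 encode the stalk of polymerase I, and of this pair only RPA43 was called. RPA43 fell by 0.71 (adjusted p = 0.000573) in the SPT15 strain and by 0.76 (adjusted p = 0.000861) in the spt15-300 strain. The changes of RPA14 were -0.04 (SE 0.046, adjusted p = 0.424) and 0.12 (SE 0.051, adjusted p = 0.0734). RPA14 thus had the smallest medium change among the 21 subunits in each strain. RPA12, whose protein acts in cleavage of the nascent RNA and in termination, fell by 0.35 and 0.43. RPA43 (YOR340C) and RPA190 (YOR341W) are the only members that neighbour each other among protein-coding genes of the R64 gene table, and by their locus tags they are transcribed away from each other.

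All 4 shared subunits among the 38 genes fell in both strains. RPC40 and RPC19 encode the heterodimer on which polymerases I and III are both assembled. RPC40 fell by 0.46 and 0.53, and RPC19 fell by 0.33 and 0.49, in the SPT15 and the spt15-300 strain. Without replicate 3 of the spt15-300 strain in ethanol, RPC19 there was at -0.29 (adjusted p = 0.0779). In the SPT15 strain the RPC19 call was lost without replicate 1 or 3 grown without ethanol or replicate 2 or 3 grown with it (adjusted p up to 0.0914). RPO26 and RPC10, small subunits of all 3 polymerases, fell by 0.27 and 0.25 in the SPT15 strain and by 0.34 each in the spt15-300 strain. Of the other 3 genes shared by all polymerases, RPB5, RPB8 and RPB10, which are not among the 38, 2 were called lower in the SPT15 strain and 3 in the spt15-300 strain, with medians of -0.27 and -0.49. For comparison, 2 of the 7 subunits of polymerase II alone fell and 0 rose in the SPT15 strain, and 2 fell and 1 rose in the spt15-300 strain, with medians of -0.11 and 0.01. RPB9 fell in both (-0.17 and -0.43). No test was made of the difference between these groups of genes.

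Among the polymerase III subunits, 9 of the 10 genes fell in each strain, with medians of -0.57 and -0.52. The member with the largest medium change of all was RPC34, whose protein sits with those of RPC82 and RPC31 in a heterotrimer needed for initiation and contacts TFIIIB. RPC34 (YNR003C) read 10.28, 10.30 and 10.41 in the SPT15 strain without ethanol and 9.32, 9.10 and 9.21 with it. In the spt15-300 strain it read 10.36, 10.25 and 10.18 without ethanol and 9.37 and 9.40 with it. The gap between the media was several times the spread within any group. RPC34 was 2.18-fold lower in the SPT15 strain (log2 change -1.12, SE 0.064, adjusted p = 4.59e-07) and 1.84-fold lower in the spt15-300 strain (-0.88, SE 0.071, adjusted p = 7.87e-06). Of the other 2 genes of the heterotrimer, RPC82 fell by 0.54 and 0.49, and RPC31 by 0.56 and 0.42.

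RPO31 and RET1 encode the catalytic pair of polymerase III. In the SPT15 strain RPO31 fell by 0.58 (adjusted p = 0.00113) and RET1 by 0.65 (adjusted p = 0.0011). In the spt15-300 strain RPO31 fell by 0.39 (adjusted p = 0.018), and RET1 changed by -0.32 without being called (SE 0.13, adjusted p = 0.0624). Without replicate 3 of the spt15-300 strain in ethanol, RPO31 was at -0.28 (adjusted p = 0.151), and its call was also lost without replicate 1 of that strain grown without ethanol. RET1 was called lower there when replicate 1 or 2 of the SPT15 strain in ethanol, or replicate 1 of the spt15-300 strain in ethanol, was left out.

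The RPC53 and RPC37 proteins form a heterodimer with a part in termination and reinitiation. RPC53 had the smallest adjusted p of all 38 genes in both responses. It read 10.35 ± 0.026 (SD, n = 3) without and 9.74 ± 0.018 (SD, n = 3) with ethanol in the SPT15 strain, a change of -0.61 (adjusted p = 3.05e-07), and it changed by -0.55 (adjusted p = 2.26e-06) in the spt15-300 strain. RPC37 fell by 0.28 and 0.41, the first of which was lost without replicate 1 of the SPT15 strain grown without ethanol or its replicate 3 in ethanol (adjusted p up to 0.0537). RPC25 and RPC17 encode the stalk of polymerase III. RPC25 fell by 0.68 and 0.75, whereas RPC17 was at -0.28 in the SPT15 strain, just outside the threshold (adjusted p = 0.0503), and fell by 0.60 in the spt15-300 strain (adjusted p = 0.00227). RPC11, whose protein cleaves the nascent RNA and takes part in termination, fell by 0.46 and 0.72.

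**Figure D2:**
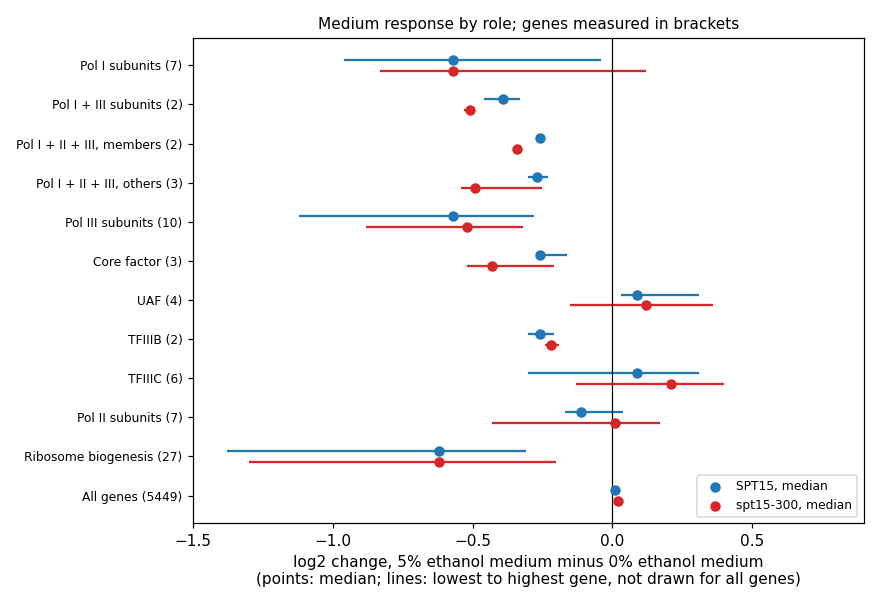
Median log2 change from the medium without ethanol to the ethanol medium for each role and for comparison lists, in the SPT15 strain (blue) and the spt15-300 strain (red). Lines run from the lowest to the highest gene, with the number of genes in brackets. Polymerase I and III subunits have medians of -0.57 and -0.57 in the SPT15 strain and ribosome biogenesis genes one of -0.62, while UAF and TFIIIC have medians above 0. The medians of all genes, 0.01 in the SPT15 strain and 0.02 in the spt15-300 strain, are above 0 as well.

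The initiation factors of polymerase I moved in both directions, as all genes did. RRN3, whose protein binds polymerase I and makes it ready to start, fell by 0.67 (SE 0.081, adjusted p = 7.84e-05) in the SPT15 strain and by 0.68 (SE 0.091, adjusted p = 0.000184) in the spt15-300 strain. Of the 3 core factor genes, whose complex sits at the promoter of the ribosomal RNA genes, 2 fell in each strain. Among all genes 29% fell in the SPT15 strain and 28.7% in the spt15-300 strain. RRN7 fell by 0.26 and 0.43. RRN6 was called lower in the SPT15 strain (-0.27, adjusted p = 0.0415) and not in the spt15-300 strain (-0.21, adjusted p = 0.131). The first call was lost in 6 of the 11 fits that each left out an array, among them every one without an array of the SPT15 strain grown without ethanol (adjusted p up to 0.148). The reverse held for RRN11 (-0.16, adjusted p = 0.176, and -0.52, adjusted p = 0.00253). These differences between strains were not called in the interaction (adjusted p = 0.856 for RRN6 and 0.228 for RRN11).

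The upstream activating factor, UAF, binds farther from the start of the ribosomal RNA genes and is needed for their full transcription. Of its 4 genes measured here, 2 rose in each strain and 0 fell. Of all genes, 31.7% rose and 29% fell in the SPT15 strain, and 33.8% rose and 28.7% fell in the spt15-300 strain. A count over 4 genes is too small to set UAF apart from these shares. RRN5 (YLR141W) read 8.64, 8.67 and 8.76 in the SPT15 strain without ethanol and 9.02, 8.92 and 9.06 with it. The spt15-300 strain read 8.83, 8.81 and 8.76 without and 9.06 and 9.25 with ethanol. Every ethanol array was above every array without ethanol. The change was 0.31 (SE 0.057, adjusted p = 0.00115), or 1.24-fold, in the SPT15 strain and 0.36 (SE 0.064, adjusted p = 0.00103), or 1.28-fold, in the spt15-300 strain. With quantile normalization repeated, the change in the SPT15 strain was 0.16 and no longer called (adjusted p = 0.0515). RRN10 (YBL025W) read 9.96, 9.94 and 9.91 in the SPT15 strain without ethanol and 10.09, 10.03 and 10.10 with it. Its values in the spt15-300 strain were 9.97, 9.97 and 9.96 without and 10.24 and 10.21 with ethanol. The 2 media were apart in both strains, and with ethanol the spt15-300 arrays were also above those of the SPT15 strain. RRN10 rose by 0.14 (SE 0.033, adjusted p = 0.0052) and by 0.26 (SE 0.037, adjusted p = 0.000263). The other UAF genes were not called: RRN9 was at 0.03 and -0.02 and UAF30 at 0.04 and -0.15.

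TFIIIB places polymerase III on its genes and consists of the TATA-binding protein with Brf1 and Bdp1. BRF1 fell by 0.30 (adjusted p = 0.000745) and 0.24 (adjusted p = 0.00515), and BDP1 by 0.21 (adjusted p = 0.000574) and 0.19 (adjusted p = 0.00206). Without replicate 3 of the spt15-300 strain in ethanol, BRF1 was at -0.19 there (adjusted p = 0.0541). SPT15, the remaining TFIIIB gene, also fell, by 0.13 (adjusted p = 0.00542) and 0.16 (adjusted p = 0.00307). Its probe set reads the plasmid copy too, so this fall cannot be assigned to the chromosomal gene.

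TFIIIC binds inside transfer RNA genes and recruits TFIIIB. Of its 6 genes, 2 rose and 1 fell in the SPT15 strain, where 31.7% of all genes rose and 29% fell. In the spt15-300 strain 3 rose and 0 fell, where 33.8% of all genes rose and 28.7% fell. A count over 6 genes is too small to set TFIIIC apart from these shares. TFC3, TFC6 and TFC8 encode the part of the complex that binds the B box, farther from the start site. TFC6 (YDR362C) read 9.78, 9.74 and 9.68 in the SPT15 strain without ethanol and 9.96, 9.88 and 9.97 with it. In the spt15-300 strain its readings were 9.74, 9.69 and 9.67 without and 10.11 and 10.10 with ethanol. The ethanol arrays were higher in both strains with no overlap. TFC6 rose by 0.20 (SE 0.040, adjusted p = 0.00162) and by 0.40 (SE 0.045, adjusted p = 5.64e-05), or 1.32-fold, the highest change of the 38 genes in the spt15-300 strain.

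TFC8 (YPL007C) read 9.93, 9.90 and 9.86 in the SPT15 strain without ethanol and 10.23, 10.23 and 10.16 with it. The spt15-300 strain gave 9.73, 9.72 and 9.75 without and 10.21 and 10.05 with ethanol. Here too the ethanol arrays were all above the others. TFC8 rose by 0.31 (SE 0.044, adjusted p = 0.00024) and by 0.39 (SE 0.050, adjusted p = 0.000132). TFC3 was at 0.07 and 0.21 without a call. TFC1, TFC4 and TFC7 encode the part that binds the A box. TFC4, whose protein contacts TFIIIB, fell by 0.30 in the SPT15 strain (adjusted p = 0.000571) and was at -0.13 in the spt15-300 strain (adjusted p = 0.0591). TFC1 was at 0.11 in the SPT15 strain (adjusted p = 0.114) and rose by 0.21 in the spt15-300 strain (adjusted p = 0.0165), a call lost without its replicate 2 grown without ethanol or its replicate 1 in ethanol (adjusted p up to 0.156). TFC7 was at 0.06 and -0.04, called in neither.

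**Figure D3:**
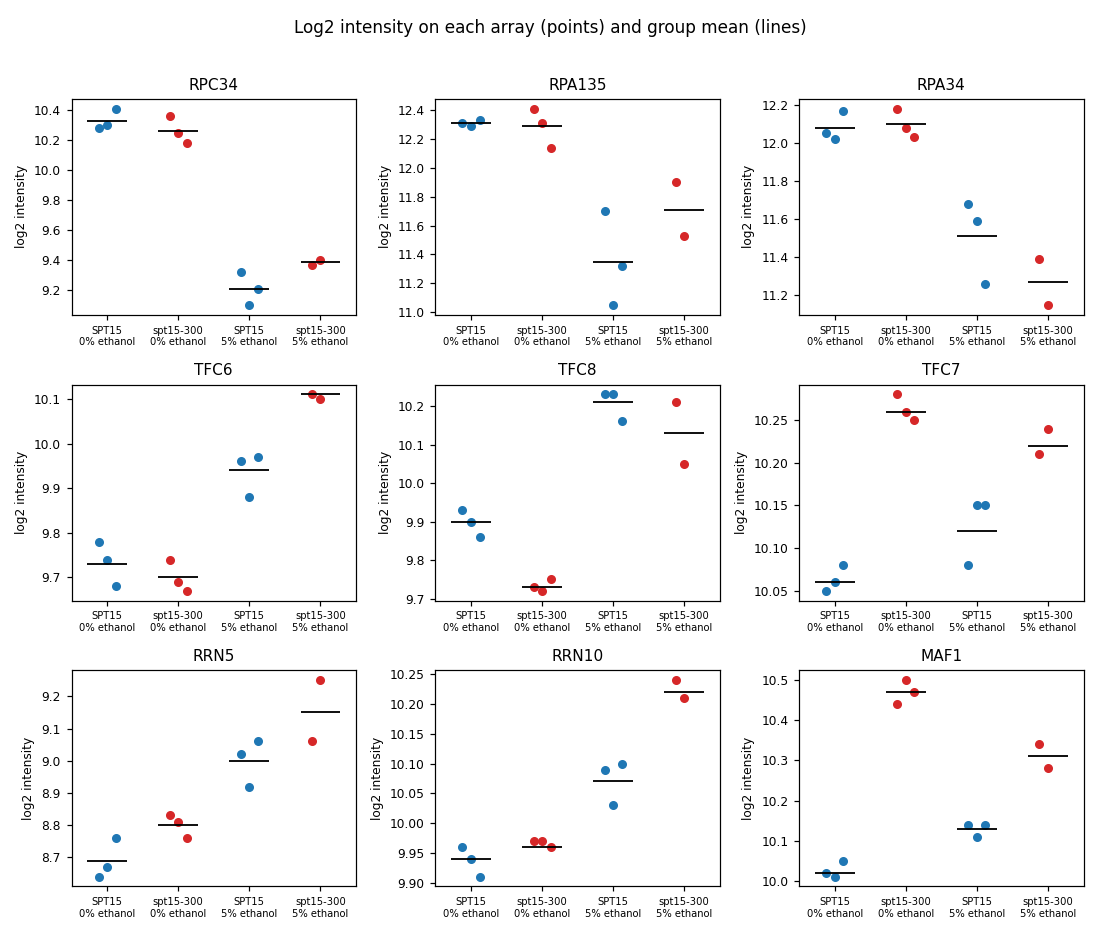
Log2 intensity of 9 genes on each of the 11 arrays, by strain and medium. Points are arrays and lines are group means; each panel has its own axis, which does not start at 0. RPC34, RPA135 and RPA34 are lower in the ethanol medium, TFC6, TFC8, RRN5 and RRN10 are higher, and MAF1 and TFC7 are higher in the spt15-300 strain in both media. The TFC7 difference was called only without ethanol.

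The comparison of strains asks whether the mutant TATA-binding protein goes with other levels of this machinery. Few genes were called. Without ethanol, 2 of the 38 were called higher in the spt15-300 strain (MAF1 and TFC7), against 8.26% of all genes. There 1 was called lower (TFC8), against 8.07% of all genes. With ethanol, 3 were called higher (MAF1, RRN10 and TFC6), against 5.73% of all genes, and 0 lower, against 5.98%. As shares of the 38, these calls were 5.26% higher and 2.63% lower without ethanol, and 7.89% and 0% with it. They lie near or under the background. At an unadjusted p under 0.05 in limma, 2 of the 38 were higher and 3 lower without ethanol. With ethanol, 8 were higher and 2 lower. Of all 5449 genes, 701 were higher and 962 lower at that threshold without ethanol, and 767 and 936 with it. Median differences over the 38 were -0.02 and -0.01, against -0.03 and -0.01 over all genes.

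None of the 21 polymerase subunits was called between strains in either medium by limma. At an unadjusted p under 0.05, 0 were higher and 1 lower without ethanol, and 2 were higher and 2 lower with ethanol. The counts over all 5449 genes, 701 and 962 without ethanol and 767 and 936 with it, are larger shares. Among the subunits the smallest adjusted p without ethanol was 0.16, for RPC82 at -0.11 (SE 0.049). With ethanol it was 0.0604, for RPA14 at 0.17 (SE 0.051), followed by 0.0701 for RPC11 at -0.44 (SE 0.14). Standard errors of the strain difference reached 0.15 without ethanol and 0.17 with it, so differences of that size in the least precise subunits were not detectable with these arrays. The genes called between strains, 3 of TFIIIC with RRN10 of UAF and MAF1, were all among the factors. Of the 17 factors, 2 were called higher and 1 lower without ethanol, where 8.26% and 8.07% of all genes were. With ethanol 3 were called higher and 0 lower, where 5.73% and 5.98% of all genes were. Standard errors of the factors reached 0.10 and 0.12, less than those of the subunits. No test was made of the difference between factors and subunits.

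MAF1 (YDR005C) was the only member called higher in the spt15-300 strain in both media, as 2.83% of all genes were. Maf1 binds polymerase III and represses it when it is dephosphorylated. Its messenger RNA read 10.02, 10.01 and 10.05 in the SPT15 strain without ethanol and 10.44, 10.50 and 10.47 in the spt15-300 strain there. With ethanol it read 10.14, 10.11 and 10.14 in the SPT15 strain and 10.34 and 10.28 in the spt15-300 strain. The 4 groups did not overlap: the SPT15 strain without ethanol was lowest and the spt15-300 strain without ethanol highest. The strain difference was 0.45 (SE 0.032, adjusted p = 3.19e-05), or 1.36-fold, without ethanol and 0.18 (SE 0.036, adjusted p = 0.0182), or 1.13-fold, with ethanol. The ethanol difference was lost without replicate 2 of the SPT15 strain (adjusted p = 0.0527) and without either array of the spt15-300 strain (0.0663 without replicate 1 and 0.0627 without replicate 3).

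The medium response of MAF1 had opposite signs in the strains, 0.10 (SE 0.032, adjusted p = 0.0173) in the SPT15 strain and -0.16 (SE 0.036, adjusted p = 0.00328) in the spt15-300 strain. The first of these was lost without replicate 1 or replicate 2 of the SPT15 strain without ethanol, with a highest adjusted p of 0.0613. The interaction, which is the response of the spt15-300 strain minus that of the SPT15 strain, was -0.27 (SE 0.048, adjusted p = 0.0339). It held in 1 of the 11 fits that each left out an array, without replicate 3 of the SPT15 strain in ethanol (adjusted p = 0.0256), and adjusted p-values over the 11 reached 0.132. MAF1 was the only member called in the interaction, where 0.826% of all genes were called lower and 0.385% higher, with 0 of the 38 higher. At an unadjusted p under 0.05 in limma, 5 of the 38 were higher and 3 lower, where 603 and 482 of all 5449 genes were. The median interaction was 0.03 over the 38 and 0.01 over all genes.

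TFC7 (YOR110W), of the A box part of TFIIIC, read 10.05, 10.06 and 10.08 in the SPT15 strain and 10.28, 10.26 and 10.25 in the spt15-300 strain without ethanol. With ethanol the arrays gave 10.08, 10.15 and 10.15 in the SPT15 strain and 10.21 and 10.24 in the spt15-300 strain. The strains did not overlap in either medium. The difference was called without ethanol (0.20, SE 0.033, adjusted p = 0.0033, 1.15-fold) and not with it (0.10, SE 0.037, adjusted p = 0.0963), and the difference between these was not called in the interaction (adjusted p = 0.293).

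The remaining strain calls were small and near the threshold, and many fits that left out an array lost them. TFC8, with the values given above, was 0.16 lower in the spt15-300 strain without ethanol (log2 difference -0.16, SE 0.044, adjusted p = 0.0356), with no overlap of the arrays. That call was lost when any 1 of the 6 arrays compared was left out (adjusted p up to 0.125). With ethanol, RRN10 was 0.15 higher (SE 0.037, adjusted p = 0.0318) and TFC6 0.17 higher (SE 0.045, adjusted p = 0.0398) in the spt15-300 strain, again with no overlap. The RRN10 call was lost in 7 (adjusted p up to 0.117) and the TFC6 call in 9 (up to 0.158) of the 11 fits that each left out an array, both of them without either spt15-300 array in ethanol. With all 12 arrays RRN10 was at -0.27 and MAF1 at -0.15 in this comparison, neither called.

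**Figure D4:**
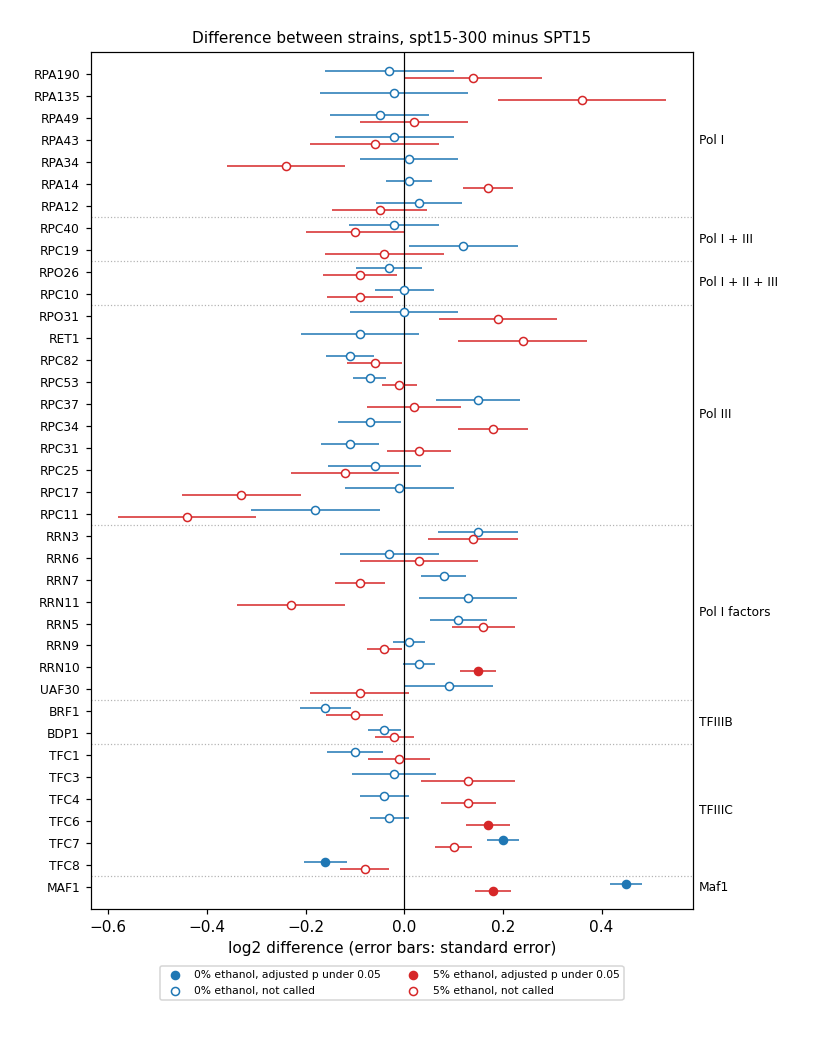
Log2 difference between strains, spt15-300 minus SPT15, for each of the 38 genes without ethanol (blue) and with ethanol (red). Points are fitted differences and bars are standard errors; filled points have a limma adjusted p under 0.05. The polymerase subunits scatter on both sides of 0 with no filled point, and MAF1 without ethanol is the farthest to the right at 0.45.

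Subunit genes also varied together between cultures of a group. In replicate 1 of the SPT15 strain in ethanol, 21 of the 21 subunits read above their group mean, by 0.15 on average, and in replicate 3 of that group 1 of 21 did, with a mean deviation of -0.11. In the spt15-300 strain in ethanol 18 of 21 were above in replicate 1 (0.11) and 3 of 21 in replicate 3 (-0.11). That group has 2 arrays, so the values of replicate 3 mirror those of replicate 1 and add no observation. Without ethanol the spt15-300 strain had 21 of 21 above in replicate 1 (0.10) and 0 of 21 in replicate 3 (-0.08). The SPT15 strain without ethanol varied least, from -0.02 to 0.04. The mean deviation over all genes stayed between -0.023 and 0.015. Genes of one group that deviate together are not independent measurements, so a count of subunits called in 1 comparison is not a count of separate observations.

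**Figure D5:**
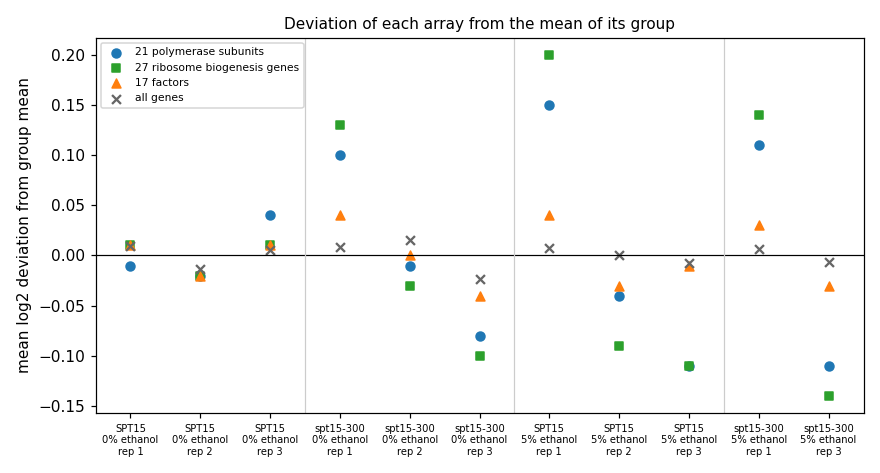
Mean log2 deviation of each array from its group's mean, for the 21 polymerase subunits (blue), 27 ribosome biogenesis genes (green), 17 factor genes (orange) and all genes (crosses). The first replicate lies above 0 for subunits and ribosome biogenesis genes in 3 of the 4 groups, and the factors and all genes deviate less.

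Ribosome biogenesis genes, whose products process the RNA made by polymerase I, also fell: 27 of the 27 listed in the SPT15 strain and 25 in the spt15-300 strain, with a median of -0.62 in each. Of all genes, 29% fell in the SPT15 strain and 28.7% in the spt15-300 strain. The list was chosen with earlier results of these data known, so its count is no separate support for that of the subunits. MPP10 and NOP56, of the machinery that processes and modifies ribosomal RNA, fell by 0.88 and 0.59 in the SPT15 strain and by 0.85 and 0.69 in the spt15-300 strain. Their mean deviation per array had the sign of the subunits' on the 6 arrays named above, at 0.20 and -0.11, 0.14 and -0.14, and 0.13 and -0.10. The values 0.14 and -0.14 come from the group of 2 arrays, where 1 value fixes the other. Between strains, 1 of the 27 was called, NSR1, a nucleolar protein, at 0.23 without ethanol.

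A list of 22 regulators of the polymerases was mixed, as all genes were. Of the 22, 5 rose and 9 fell in the SPT15 strain, and 3 rose and 8 fell in the spt15-300 strain. LHP1, whose protein binds the ends of new polymerase III transcripts, fell by 0.82 and 0.79. STB3, a repressor of ribosome biogenesis genes, rose by 0.45 and 0.49. On the same list TOD6 fell by 0.31 and 0.30, and DOT6 rose by 0.16 and 0.23. MCK1, a protein kinase, fell by 0.23 and 0.18, and CKB2, a subunit of casein kinase 2, fell by 0.41 and 0.56. Between strains without ethanol, 1 of the 22 was called higher in the spt15-300 strain and 0 lower, against 8.26% and 8.07% of all genes. This was NHP6B, a chromatin protein used at some polymerase III genes, at 0.15 (limma adjusted p = 0.0448). With ethanol 2 of the 22 were called higher in that strain and 0 lower, against 5.73% and 5.98% of all genes. SFP1, an activator of ribosome biogenesis genes, was 0.40 higher (adjusted p = 0.0328). REB1, which binds near the ribosomal RNA genes, was 0.14 higher (adjusted p = 0.0454). These strain calls were near the threshold.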

How the data were processed

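Total RNA of 12 cultures was biotin-labelled and hybridised to 12 arrays, per the labels. The deposited table holds 1 linear intensity per probe set and array, made by the authors with RMA (background correction, quantile alignment and probe summary), per the submitters' processing notes. No version or settings are given in the sources used here. Log2 was taken without a pseudocount. Probe sets were named through the platform annotation and the RefSeq R64 gene table. A gene with several was read from its brightest on average, giving 5449 genes. None of the 38 members has a shared probe set. limma 3.58.1 in R 4.3.3 fitted 4 group means to 11 arrays (lmFit and eBayes, 7 residual and 2.73 prior degrees of freedom). It was tested on simulated data. Arrays give no depth, so their number limits the precision. The design text describes biological replicates, 3 per group. All called members are named, and per-array values are given for the 2 highest and 2 lowest called members of each comparison. Alternatives were all 12 arrays with or without array weights, a replicate block, aligned medians, repeated quantile normalization, a filter on the lowest 25% of genes, log2(value + 16), a variance trend, the mean of probe sets, only the groups compared, and each array left out. Members and lists were chosen with earlier results of these data known. Promoter sequences were not analysed here.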

Additional observations from a re-analysis of the deposited data

Results flagged for a closer look

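MAF1 stood out because its medium response differed between the strains in a test of that difference, -0.27 on the log2 scale (limma adjusted p = 0.0339), with every array of the SPT15 strain higher in ethanol and every array of the spt15-300 strain lower. The difference was kept in 1 of the 11 fits that each left out an array. On the array left out as an outlier, a signal appeared in control probe sets that the comparisons do not use: 16 of the 17 probe sets of ribosomal RNA, the product of polymerase I, read above all 11 other arrays. The median excess was 2.56 on the log2 scale, from -0.02 to 3.33. On that array the 95th percentile of the S. pombe probe sets was 10.78, against 7.10 to 7.36 on the 11 arrays used. There 75% of yeast genes read below and 12.4% above the range of the other arrays. Background signal was thus raised on it as well, and its part in the ribosomal RNA values was not tested.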

How the results depend on the processing

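Over the 11 fits that left out an array, members called numbered 26 to 32 for the medium in the SPT15 strain, 24 to 33 in the spt15-300 strain, 2 to 4 between strains without ethanol, 0 to 6 between strains with ethanol, and 0 to 1 in the interaction. Over all genes the strain counts ran from 454 to 974 without ethanol and from 72 to 1326 with it, and the interaction from 16 to 448, against 890, 638 and 66. With all 12 arrays, members called fell to 8 and 14 for the medium in the 2 strains and to 0 between strains in each medium and in the interaction. In that fit RRN10 (-0.27) and MAF1 (-0.15) turned to lower between strains with ethanol, and RRN10 (-0.16) and RRN5 (-0.18) in the medium response of the spt15-300 strain, none of them called. The median of all genes then shifted by -0.27 between strains with ethanol, -0.25 in that response and -0.26 in the interaction. All genes called were then 13, 0, 408, 744 and 3, against 890, 638, 3312, 3404 and 66. With array weights 15 members were called between strains without ethanol (8 higher, 7 lower) and 2 in the interaction, and 2729 and 486 of all genes. With only the groups compared 0 members, and 6 of all genes, were called between strains with ethanol (members' lowest adjusted p = 0.215). The cause was not tested. A repeated quantile normalization called 2 higher and 2 lower without ethanol and 3 and 1 with it. Of 67 calls of single members, 67 held with array weights, aligned medians, log2(value + 16), a variance trend or the mean of probe sets, 66 with repeated quantile normalization (all but RRN5 in the SPT15 strain's medium response), 63 of 66 with only the groups compared, and 63 of 63 without the lowest 25% of genes. Deviations of samples with the same number correlated at over 0.1 in 11 of 15 pairs (r from -0.247 to 0.709), against 9 of 30 pairs of different number. The 4 others all involve the SPT15 strain without ethanol, and not every sample correlated best with its own number. Deviations add up to 0 within a group, so the pairs are not independent, and those of different number are no separate reference. No label ties the numbers to a shared batch, so the pairing is at most a hint from the data and not part of the design. The fit with the replicate number as a block kept 65 of the 67 calls. It lost MAF1 in the interaction (adjusted p = 0.0652), which left 0 members called there, and TFC6 between strains with ethanol (adjusted p = 0.0534). The small groups and the 2 arrays of the spt15-300 strain in ethanol limit what could be called.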

Other observations

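The array carries 17 control probe sets for ribosomal RNA. On the 11 arrays used their median log2 difference between strains, spt15-300 minus SPT15, was 0.09 without ethanol and -0.08 with it, and their median medium change was 0.09 in the SPT15 strain and -0.04 in the spt15-300 strain. Single probe sets ranged from -0.15 to 0.64 in the SPT15 strain's medium change and from -0.41 to 0.32 in that of the spt15-300 strain. These are values with no test. Whether these probe sets follow the amount of ribosomal RNA made was not tested, so they are not read as polymerase I output.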
